A study of Homo sapiens with 6 samples.

Results

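The response to tumour necrosis factor alpha (TNFa) after 60 min was read in the established human cell line H358, derived from a bronchioalveolar carcinoma, by setting 2 arrays of TNFa-treated cells against 2 arrays of vehicle-treated cells, 4 of the 6 arrays of the series. One array of each kind came from a line carrying GFP, labelled as the control genotype, and the other from a line whose genotype is given as expression of YAP(5SA). YAP is a transcriptional coactivator held back by the Hippo pathway, and in YAP(5SA) the serines that this pathway phosphorylates are replaced. The remaining 2 arrays hold the same 2 lines given IL-1b for 60 min. All 6 cultures were grown in the same serum-containing medium, and each array holds total RNA labelled with the dye Cy5. The dose in the labels, 10 g/ml, is not a possible amount of a cytokine, and the true dose is therefore unknown. The sources used here do not say how the lines were made, whether either is 1 clone, or whether vehicle and TNFa cells came from separate cultures. The series title asks which genes respond to YAP when these cytokines are present. The TNFa pairs within each line show which genes had moved after 60 min whichever form was expressed.

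TNFa is a cytokine that binds the receptors TNFR1 and TNFR2. TNFR1 gathers adaptors and ubiquitin ligases that switch on the IKK kinase complex. IKK marks the IkB proteins for destruction, and the NF-kB transcription factors they hold in the cytoplasm then enter the nucleus. The same receptor complex also feeds the JNK and p38 kinases, which act on AP-1 factors. Among the earliest NF-kB target genes are chemokines that draw neutrophils and lymphocytes and, as negative feedback, the genes of the inhibitors IkB alpha and A20. In airway and alveolar epithelium this response recruits immune cells to sites of injury or infection.

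Of 19090 genes named by a probe, 12350 were tested after removal of the dimmest 40% of probes, with each gene represented by its brightest probe. Median intensities were 379.2 and 335.2 with vehicle in GFP and YAP(5SA) cells, and 340.7 and 366.3 with TNFa. The YAP(5SA) TNFa array held the most probes below 0 after background subtraction, 1146 or 4.05% of the table. Differences are TNFa minus vehicle on the log2(intensity + 16) scale, where the added 16 shrinks the differences of dim genes. Their median over all genes tested was -0.19 for GFP and 0.09 for YAP(5SA), and the values below are to be read against that shift. Each condition has 1 array, so no replicate spread stands behind the adjusted p-values, which come from limma's additive fit of treatment and line. The errors in that fit are weighted mostly to a variance pooled over genes, with 34.3 prior against 2 residual degrees of freedom. A small adjusted p or SE therefore need not mean that a gene moved alike in both lines. CLDND1, for example, moved by 0.73 in GFP and 8.57 in YAP(5SA) and passed limma's test at an adjusted p of 0.000476.

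On the epithelial side, the keratin KRT18 lay between 100700 and 225400 on the 6 arrays, KRT7 between 34380 and 65710, and the cadherin CDH1 between 5577 and 26620. KRT8 lay much lower, between 257.6 and 650.5, and the epithelial marker EPCAM was dim, between 122.1 and 387.5. Of 12 epithelial markers, 7 passed the filter, and KRT19 was among the 5 that did not. Of 12 alveolar and airway markers, 5 passed the filter, and the summed intensity of all 12 ran from 4677 to 6050. Among them the surfactant genes SFTPA1 and SFTPC did not exceed 37.15 and 58.89 and the lung lineage factor NKX2-1 did not exceed 129.5, while SFTPB lay between 137.5 and 180.6 and the airway secretory gene SCGB1A1 between 189.4 and 431.4. Of 13 leukocyte markers with a probe, 8 passed the filter. PTPRC and CD3E did not exceed 36.9 and 33.52, while CD14 lay between 982.1 and 3613, CD68 between 1285 and 1835, and MS4A1 between 271.2 and 733.6. The YAP1 probe read 7663 in GFP and 3244 in YAP(5SA) vehicle cells, so it was not higher in the line labelled as expressing YAP(5SA), and the sources used here do not say where the probe lies relative to the expressed form.

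Some single probes read far from the other 5 arrays on 1 array, by over 3 log2 units, and this touches the calls. Of the genes whose mean difference passed the threshold, this held for 9 that were higher (CLDND1, DHX29, KNTC1, TUT1, P3H1, LAX1, TMEM156, BLM and KIF5B) and for 5 that were lower (CLEC19A, CCT7, ATXN7L3B, CAMKK2 and PANK4). They are kept in the counts and described no further as responses to TNFa. A pair of probes with the largest differences of all changed on both vehicle arrays instead. C1QBP, a mitochondrial matrix protein, read 4.61 and 21.7 with vehicle and 14820.0 and 12134 with TNFa. IFFO2, an intermediate filament family member, read 12440 and 5755 with vehicle and 214.0 and 220.4 with TNFa. Both rest on 1 probe, and their levels with IL-1b (16472 and 13819.7 for C1QBP, 255.3 and 337.8 for IFFO2) also stood apart from vehicle. Whether a fault of the probes or of the vehicle arrays set them apart was not tested. Both genes are kept in the counts.

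Apart from the genes just named, the largest responses after 60 min of TNFa were in chemokines, TNF itself, the A20 gene TNFAIP3, PTX3 and IL6. At an adjusted p under 0.05, 85 genes were higher with TNFa, or 0.688% of the genes tested, and 10 were lower, or 0.081%, so that 0.769% passed in either direction. Without adjustment, 321 genes were higher and 230 lower at p under 0.05. Of the 85 genes, 80 were higher in both pairs, and for 74 both TNFa arrays lay above both vehicle arrays, against 7.2% of all genes tested. At least 2-fold higher in both lines, a reading by size that needs no test, were 47 genes or 0.381%, and all 47 were among the 85. In the other direction, IFFO2 alone was at least 2-fold lower in both, which is 0.0081% of the genes tested. The filter used the mean over all 6 arrays, and 13 of the 85 and 7 of the 47 lay below its limit of 206 on the vehicle arrays (by mean log2), so that they entered the test only through arrays where they were high. The 7 were C1QBP, TNF, SERPINA3, KDM6B, LINC03025, SORCS1 and TP53AIP1, and the calls of such genes are not independent of the filter. Above the limit with vehicle alone were 72 of the 85 and 40 of the 47. Without the GFP vehicle array 41 genes were higher, and without the GFP TNFa array 110. In all 6 fits that left out 1 array, 29 of the 85 were called, among them CCL20, CXCL8, TNF, CXCL1, CXCL2, CXCL3, TNFAIP3, IL6, PTX3, EFNA1, IRF1, NFKBIA, NFKB2, ZFP36, PTGS2, ATF3, FOSB, CD83, CCL2 and MAP3K8.

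**Figure D1:**
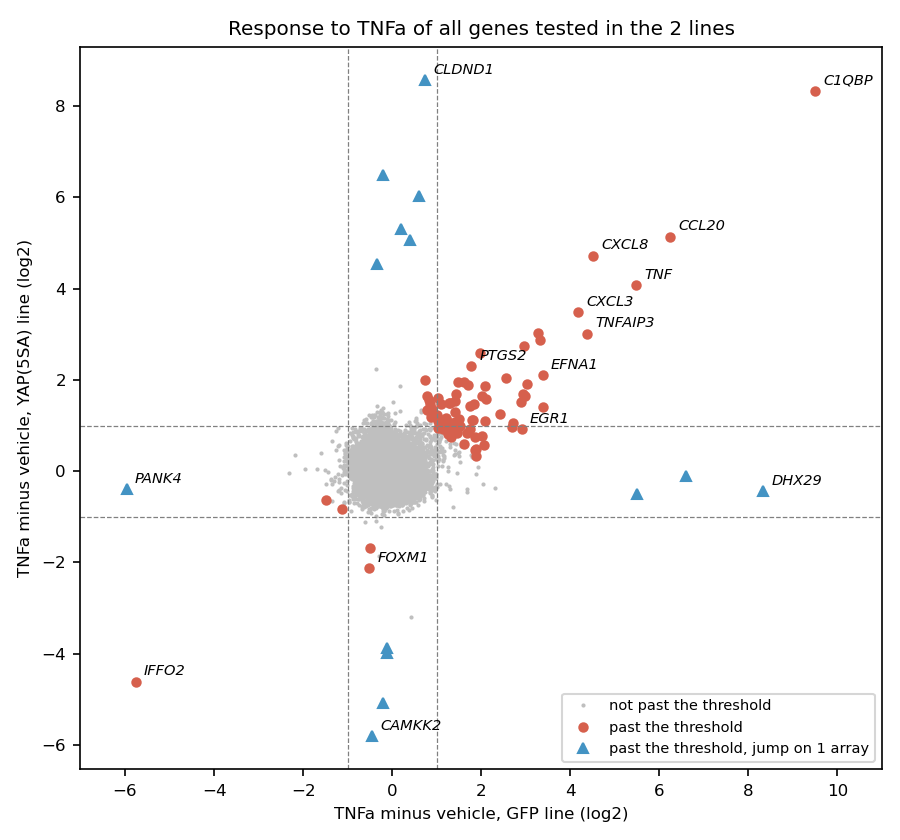
Each point is 1 of the 12350 genes tested, with its TNFa minus vehicle difference (log2) in the GFP line on the x axis and in the YAP(5SA) line on the y axis; dashed lines mark 2-fold. Red points past the threshold lie along the diagonal up to CCL20 at 6.24 and 5.14 and C1QBP at 9.49 and 8.33, while blue triangles, which jump on 1 array, lie along the axes.

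Sequence just upstream of 6 genes at least 2-fold higher in both lines is shown because their promoters hold letters that fit the kappaB consensus, the motif that NF-kB dimers bind. Each run is the 130 bases before the RefSeq start of the gene (GRCh38.p14), 5′ to 3′ on the gene's strand, with the letters that fit the consensus on either strand in capitals. CCL20, CXCL2 and IL6 encode secreted signals, NFKBIA and TNFAIP3 encode inhibitors of NF-kB, and IRF1 encodes a transcription factor.
CCL20, chr2:227813712-227813841, plus strand: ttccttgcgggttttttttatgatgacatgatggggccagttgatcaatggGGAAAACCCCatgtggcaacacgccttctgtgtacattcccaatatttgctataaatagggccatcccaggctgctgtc
CXCL2, chr4:74099196-74099325, minus strand: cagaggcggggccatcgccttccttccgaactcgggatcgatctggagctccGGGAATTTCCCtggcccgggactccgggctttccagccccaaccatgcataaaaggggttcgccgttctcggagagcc
IL6, chr7:22727070-22727199, plus strand: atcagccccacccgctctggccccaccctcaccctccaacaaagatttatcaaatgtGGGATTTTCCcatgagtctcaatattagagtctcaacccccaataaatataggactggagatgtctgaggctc
NFKBIA, chr14:35404750-35404879, minus strand: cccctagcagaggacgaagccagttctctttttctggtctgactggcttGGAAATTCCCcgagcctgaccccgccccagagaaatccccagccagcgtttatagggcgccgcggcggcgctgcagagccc
TNFAIP3, chr6:137867129-137867258, plus strand: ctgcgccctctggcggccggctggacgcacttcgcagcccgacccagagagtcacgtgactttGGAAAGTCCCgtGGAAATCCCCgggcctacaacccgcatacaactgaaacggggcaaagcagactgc
IRF1, chr5:132490774-132490903, minus strand: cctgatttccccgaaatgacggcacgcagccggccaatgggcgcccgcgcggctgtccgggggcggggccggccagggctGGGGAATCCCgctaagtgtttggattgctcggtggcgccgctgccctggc
In TNFAIP3 a pair of matches lies side by side, and in CXCL2 the capitals cover overlapping matches at neighbouring offsets. The match began 79 bases before the start in CCL20, 73 in IL6, 81 in NFKBIA and 50 in IRF1.

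The kappaB letters searched on both strands were GGGRNWYYCC (R is A or G, N any base, W is A or T, Y is C or T). Over the 250 bases upstream, this consensus was found in 14 of the 42 genes with a RefSeq promoter that were at least 2-fold higher in both lines (33.3%). The 14 were CCL20, CXCL1, CXCL2, CXCL3, IL6, LTB, PTX3, IRF1, NFKBIA, NFKBIZ, TNFAIP3, MAP3K8, IFNGR2 and MADCAM1. CXCL1, CXCL2 and CXCL3 hold the same run, GGGAATTTCCC, in closely similar sequence, and each is counted. The consensus was found in 18 of the 71 called genes with a promoter (25.4%), in 594 of 10058 promoters of genes tested (5.91%) and in 1380 of all 27305 promoters (5.05%). For the AP-1 letters TGANTCA, searched on both strands, the shares were 4.76% of the 42 genes, 8.45% of the 71 called genes, 4.12% of the genes tested and 6.6% of all promoters. The CArG box bound by SRF was found in 0 of the 42, in 2.82% of the 71, 1.12% of the genes tested and 1.14% of all. Where RefSeq gives several starts for a gene, the first in the table was searched. CXCL8, TNF and NFKB2 held no kappaB match in this window, which says only that these letters are not there. A match is a description of the letters and not a measured binding site.

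Among the chemokines, CCL20, which draws lymphocytes and dendritic cells through CCR6, had the largest mean difference after that of C1QBP. Its probe read 1781 in GFP and 1787 in YAP(5SA) vehicle cells, and 136198 and 63484 with TNFa. The groups do not overlap, and the mean difference was 5.69 ± 0.27 (SE of the fit, 2 pairs; adjusted p = 2.16e-18, higher in both pairs). CXCL8, the neutrophil attractant interleukin-8, read 4447 and 918 with vehicle and 102317 and 24671 with TNFa. Both TNFa arrays lay above both vehicle arrays, and the difference was 4.62 ± 0.26 (adjusted p = 3.28e-16).

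The neutrophil attractants CXCL1, CXCL2 and CXCL3, which share the receptor CXCR2, rose as well. CXCL3 read 870.0 and 386 with vehicle and 15973 and 4491 with TNFa, a difference of 3.83 ± 0.26 (adjusted p = 8.62e-14). CXCL2 read 11934 and 10449 with vehicle and 119175 and 76584 with TNFa, a difference of 3.10 ± 0.26 (adjusted p = 4.12e-11). CXCL1 was bright already with vehicle, at 78184 and 35314, and read 305393 and 212629 with TNFa, a difference of 2.28 ± 0.26 (adjusted p = 1.04e-07). For all of these the TNFa arrays lay above both vehicle arrays. A second, dimmer probe of CXCL1 moved by 2.52 in GFP and 3.29 in YAP(5SA).

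CCL2, the monocyte attractant MCP-1, read 59487 and 15394 with vehicle and 193157 and 56873 with TNFa, a difference of 1.79 ± 0.25 (adjusted p = 1.18e-05). Here the TNFa array of the YAP(5SA) line lay just under the vehicle array of the GFP line, so the groups overlap although both lines rose. A second probe moved by 2.32 and 1.93. Of 9 CXC chemokines tested, 4 rose and none fell, with a median difference of 1.01 against -0.05 over all genes. Their relative CXCL5 read 87342 and 46540.3 with vehicle and 119714 and 67564 with TNFa, a difference of 0.50 that did not pass the test (adjusted p = 0.999). The interferon-linked CXCL10 differed by 1.01 without passing (adjusted p = 0.184). Of 8 CC and CX3C chemokines tested, CCL20 and CCL2 rose and none fell, with a median of 0.28.

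**Figure D2:**
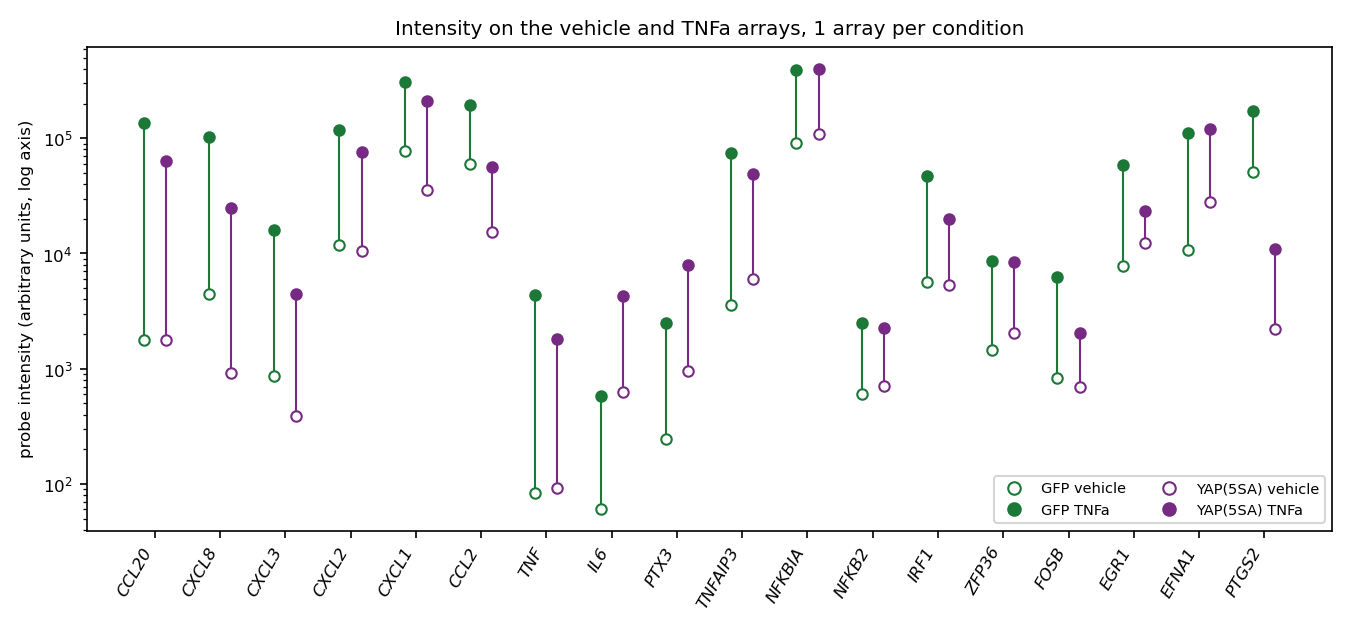
Probe intensity (arbitrary units, log axis) of 18 genes on the vehicle (open) and TNFa (filled) arrays of the GFP (green) and YAP(5SA) (purple) lines, 1 array per point. Every filled point lies above the open point of its line, from TNF, which starts at 83.03 and 92.4, to NFKBIA, which ends at 389867 and 399812.

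TNF itself, the gene of the added cytokine, was among the most strongly raised. It read 83.03 and 92.4 with vehicle and 4394 and 1814 with TNFa, so the groups do not overlap. The difference was 4.78 ± 0.28 (adjusted p = 1.99e-15). TNF passed the filter only through the cytokine arrays, and in the fit with no filter its adjusted p was 2.05e-05. LTB, the membrane partner of lymphotoxin alpha, read 406.8 and 240.1 with vehicle and 1119 and 810.3 with TNFa, a difference of 1.56 ± 0.25 (adjusted p = 0.000136). These were the 2 of 9 TNF family ligands tested that rose, and none fell, with a median of 0.26 over the 9.

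Of 12 receptors of the family tested, 1 rose and none fell, with a median of 0.19. The main TNFa receptor TNFRSF1A read 27973 and 31557 with vehicle and 18681 and 28893 with TNFa, a difference of -0.35 that did not pass the test (adjusted p = 0.999). TNFRSF1B did not pass the filter on dim probes. The receptor that rose was TNFRSF14, which binds LIGHT. It read 211.3 and 125.0 with vehicle and 363 and 544.1 with TNFa, a difference of 1.36 ± 0.28 (adjusted p = 0.00529). Its difference was 0.74 in GFP and 1.99 in YAP(5SA), and it was not called without the YAP(5SA) vehicle array (adjusted p = 0.327) or without the YAP(5SA) TNFa array (adjusted p = 0.498). Its vehicle mean was below the filter's limit, and with no filter it was not called (adjusted p = 0.19).

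Within the receptor complex and IKK pathway, 1 of 23 genes tested rose and none fell, with a median of 0.04. The gene that rose was MAP3K8, the kinase Tpl2 that links IKK to ERK. It read 866.3 and 270.9 with vehicle and 2689 and 1098 with TNFa, a difference of 1.79 ± 0.25 (adjusted p = 1.18e-05). TANK differed by 0.81 (adjusted p = 0.204) and IKBKE by 0.52 without passing limma's test, and both were higher at an unadjusted p under 0.05. TRADD, IKBKB, CHUK, IKBKG and MAP3K7, which carry the signal from the receptor to IkB, ranged from -0.19 to 0.23, and none passed. The whole list ran from -0.38 to 1.79. TRAF2, RIPK1 and BIRC3 are not analysed here.

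Of 5 NF-kB subunit genes, the precursor genes NFKB1 and NFKB2 rose and none fell, with a median of 0.96. NFKB2, the gene of p100, read 598.7 and 704.9 with vehicle and 2468 and 2248 with TNFa, a difference of 1.83 ± 0.25 (adjusted p = 8.13e-06). A second, dimmer probe of NFKB2 moved less, by 0.75 in GFP and 0.26 in YAP(5SA). NFKB1, the gene of p105, read 1602 and 1510.3 with vehicle and 3282 and 2939 with TNFa, a difference of 0.99 ± 0.25. Its adjusted p was 0.0471, and it lost its call in each of the 6 fits leaving out 1 array, with adjusted p from 0.0800 to 0.82. REL differed by 0.96 (adjusted p = 0.0949), RELB by 0.54 and RELA by -0.10, and none of these passed.

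Genes of IkB proteins and of other inhibitors of the pathway rose too. NFKBIA, the gene of IkB alpha, was already bright at 91758 and 109567 with vehicle and read 389867 and 399812 with TNFa. The groups do not overlap, and both lines ended at nearly the same level, with a difference of 1.98 ± 0.25 (adjusted p = 1.5e-06). TNFAIP3, the gene of the ubiquitin-editing enzyme A20, read 3560.2 and 6043 with vehicle and 74110 and 48869 with TNFa, a difference of 3.69 ± 0.28 (adjusted p = 4.77e-12). ZFP36, the gene of tristetraprolin, which destabilises TNF mRNA, read 1455 and 2058 with vehicle and 8616 and 8509 with TNFa, a difference of 2.30 ± 0.26 (adjusted p = 1.33e-07).

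Of 6 IkB family genes, 4 rose and none fell, with a median of 1.54: NFKBIA, NFKBIZ (1.88), NFKBID (1.83) and BCL3 (1.25). The last 3 encode nuclear IkB proteins that modulate NF-kB at its target genes. NFKBIZ read 3068 and 5786 with vehicle and 20310.1 and 11984 with TNFa, and the difference was 2.72 in GFP and 1.05 in YAP(5SA). NFKBIE differed by 0.96 without passing (adjusted p = 0.0933) and NFKBIB by 0.23. Without the GFP vehicle array, NFKBIA remained the 1 IkB gene called, and NFKBIZ, NFKBID and BCL3 were lost at adjusted p of 0.225, 0.277 and 0.898. NFKBID passed the filter only through the cytokine arrays, and with no filter it was not called (adjusted p = 0.0863). Of 15 feedback inhibitors tested, TNFAIP3, ZFP36, NFKBIA and the RNase gene ZC3H12A (1.40) rose and none fell. ZC3H12A was not called without the GFP vehicle array (adjusted p = 0.112). CYLD differed by 0.31 without passing.

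Other secreted and inflammatory products followed. IL6, the acute phase cytokine, read 60.9 and 627 with vehicle and 578.1 and 4291 with TNFa. The TNFa array of the GFP line was thus below the vehicle array of the YAP(5SA) line, while both lines rose, by 2.95 and 2.74 (mean 2.85 ± 0.25, adjusted p = 2.86e-10). PTX3, a soluble pattern recognition molecule, read 245.4 and 953.1 with vehicle and 2510.3 and 7919.6 with TNFa, a difference of 3.15 ± 0.25 (adjusted p = 1.23e-11). PTGS2, the gene of the prostaglandin synthase COX-2, read 50818 and 2215 with vehicle and 173060.0 and 10967 with TNFa. Its line difference exceeded its response, so the groups overlap, and the response was 2.03 ± 0.26 (adjusted p = 1.8e-06).

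SERPINA3, an acute phase protease inhibitor, read 222.3 and 53.45 with vehicle and 1824 and 208.7 with TNFa, a difference of 2.32 ± 0.29 (adjusted p = 1.38e-06). It passed the filter only through the cytokine arrays, and with no filter its adjusted p was 0.0226. In the list of acute phase, matrix and prostaglandin genes, PTX3, SERPINA3, PTGS2 and PLAU (1.16) rose, 4 of 17 tested, and none fell. PLAU, the gene of urokinase, moved by 1.85 in GFP and 0.47 in YAP(5SA), and it was not called without the GFP vehicle array (adjusted p = 0.974), the GFP TNFa array (adjusted p = 0.564) or either IL-1b array (adjusted p = 0.052). Of 15 cytokines and colony-stimulating factors, IL6 and IL23A rose and none fell. IL23A, the p19 subunit of interleukin-23, read 1033 and 859.8 with vehicle and 1882 and 2420.2 with TNFa, a difference of 1.17 ± 0.26 (adjusted p = 0.0126). Without the GFP vehicle array it was not called (adjusted p = 0.14), nor without the YAP(5SA) vehicle array (adjusted p = 0.214) or the YAP(5SA) TNFa array (adjusted p = 0.39). IL1B differed by 0.40 without passing, and CSF2 is not analysed here.

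At the cell surface, CD83, known from mature dendritic cells, read 270.3 and 587.1 with vehicle and 2244 and 1873 with TNFa, a difference of 2.31 ± 0.28 (adjusted p = 8.68e-07). ICAM1, the ligand of leukocyte integrins, read 190.0 and 177.6 with vehicle and 747.3 and 253.4 with TNFa. Its difference was 1.89 in GFP and 0.48 in YAP(5SA), with a mean of 1.18 ± 0.28 (adjusted p = 0.0262), and it was not called without the GFP vehicle array (adjusted p = 0.974) or the GFP TNFa array (adjusted p = 0.344). Its vehicle mean too was below the filter's limit, and with no filter its adjusted p was 0.287. With IFNGR2 (1.06), an interferon gamma receptor subunit that was not called in any of the 6 fits leaving out 1 array (adjusted p from 0.0741 to 0.25), 3 of 14 adhesion and surface genes rose and none fell. VCAM1 and SELE differed by 0.97 and 1.06 without passing (adjusted p = 0.0816 and 0.0712).

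EFNA1, the gene of the membrane ligand ephrin-A1, was not in any list and, setting aside C1QBP and the genes that jump on 1 array, gave the largest response outside them. It read 10664 and 28119 with vehicle and 110891 and 120368 with TNFa, so the groups do not overlap. The difference was 2.74 ± 0.28 (adjusted p = 9.27e-09), and its second probe moved by 3.26 in GFP and 2.58 in YAP(5SA). Also outside the lists, TIFA, an adaptor that binds TRAF6, differed by 1.72, GCH1, the first enzyme of tetrahydrobiopterin synthesis, by 1.65, KDM6B, a histone H3 lysine demethylase, by 1.59, and the kinase PIM1 by 1.35. The second, dimmer probe of TIFA moved less, by 0.80 in GFP and 0.38 in YAP(5SA). In all, 20 of the 47 genes at least 2-fold higher in both lines were in no list, among them KDM6B at 143.0 and 147.7 on the vehicle arrays and 519.5 and 422.7 on the TNFa arrays. With no filter the adjusted p of KDM6B was 0.0476. The RNA LINC03025 differed by 2.41, its second, dim probe moved by 0.64 and -0.28, and with no filter it was not called (adjusted p = 0.052). Over the 25 called genes with further probes, 14 of the 32 other probes were higher in both pairs, against 1672 of the 12350 genes tested. At least 2-fold higher in both were 7 of the 32, against 0.239% of all named probes. Some of the 32 lay near the floor, but the other probe of RAD9A, with a mean intensity of 1957, moved by -0.71 in GFP and 0.30 in YAP(5SA).

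**Figure D3:**
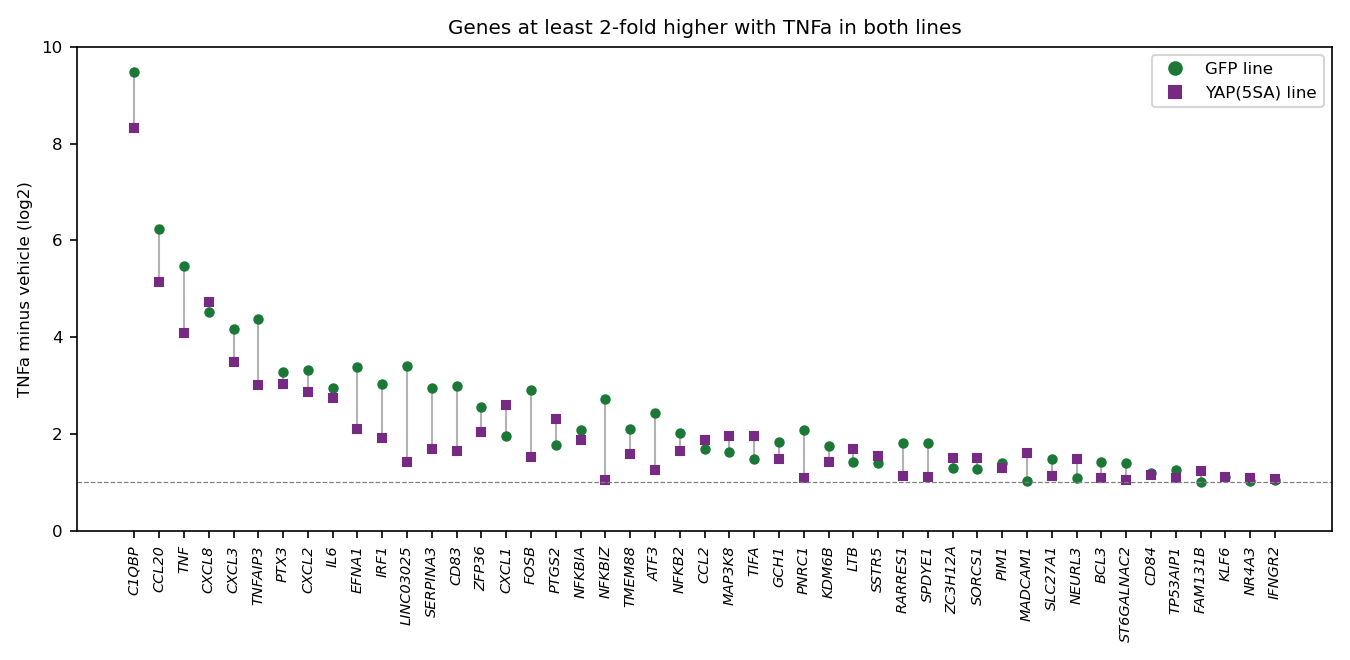
TNFa minus vehicle difference (log2) of the 47 genes at least 2-fold higher in both lines, in the GFP line (green circles) and the YAP(5SA) line (purple squares), ordered by mean; the dashed line marks 2-fold. The circle is the higher symbol for 31 genes and the square for 16.

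Early transcription factors formed a further group. IRF1, which drives antiviral and antigen presentation genes, read 5701 and 5320.1 with vehicle and 46770.3 and 20046 with TNFa, a difference of 2.47 ± 0.27 (adjusted p = 4.49e-08), and its second probe moved by 2.56 and 2.62. It was the 1 of 7 interferon regulatory factors to rise, and none fell. None of 21 interferon-induced genes passed limma's test in either direction, and 0 had an unadjusted p under 0.05, with a median of -0.13. Their values ran from -0.43 for IFI27 to 0.40 for IFI44L.

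Among 10 AP-1 genes, FOSB, ATF3 and JUNB rose and none fell. FOSB read 823.8 and 697.6 with vehicle and 6255 and 2022 with TNFa, a difference of 2.21 ± 0.30 (adjusted p = 5.22e-06). ATF3, a stress-induced family member, read 4683 and 8818 with vehicle and 25214 and 21015 with TNFa, a difference of 1.84 ± 0.27 (adjusted p = 2.41e-05). JUNB differed by 1.25, and was not called without the GFP vehicle array (adjusted p = 0.705). FOS read 226.0 and 201.1 with vehicle and 275.7 and 288.5 with TNFa, a difference of 0.38 that did not pass, and JUN differed by 0.88 (adjusted p = 0.125).

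In the list of EGR, NR4A, IER and KLF early genes, 6 of 21 rose and none fell: EGR1, NR4A1, IER3, KLF6, CEBPD and NR4A3. EGR1, a zinc finger factor induced by growth signals, read 7752 and 12424 with vehicle and 58235 and 23576 with TNFa. Its difference was 2.91 in GFP and 0.92 in YAP(5SA), and without the GFP vehicle array it was not called (adjusted p = 0.916). The other 5 differed by 1.06 to 1.30, and each lost its call in 2 to 5 of the 6 fits leaving out 1 array. The count of 6 was 3 in a fit on the TNFa and vehicle arrays alone and 1 without the GFP vehicle array. None of 10 dual-specificity phosphatases, which turn off MAP kinases, passed limma's test, and DUSP8 (0.78) had an unadjusted p under 0.05.

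**Figure D4:**
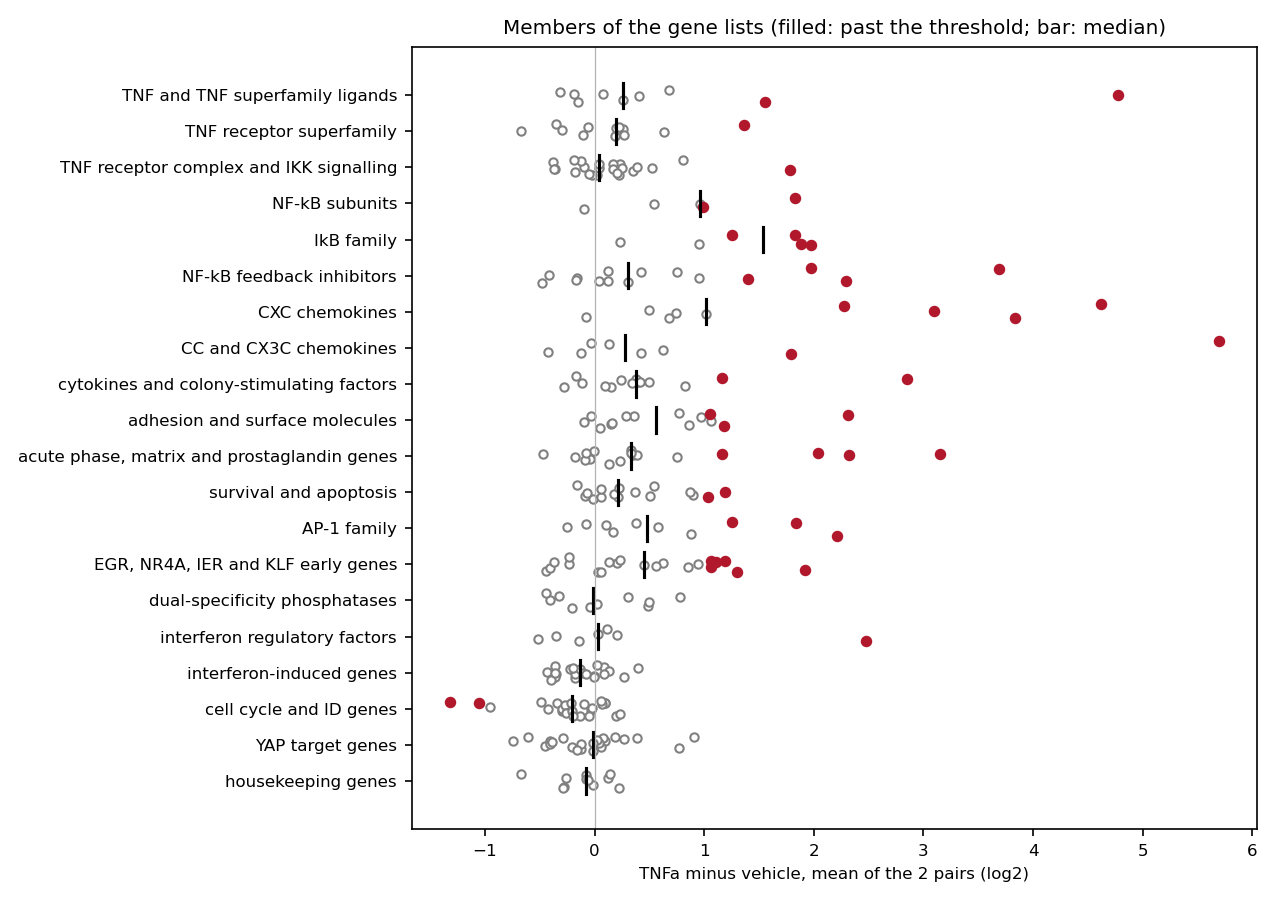
Mean TNFa minus vehicle difference (log2) of the tested members of 20 gene lists; each circle is 1 gene, filled where it passed the threshold, and the black bar is the list's median. Filled circles lie to the right in the chemokine, IkB and feedback lists, with CCL20 at 5.69 the farthest, and to the left only for FOXM1 and ID1.

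The lists of survival, growth and cell identity genes were read in the same way. Of 16 survival genes, IER3 (1.19) and the BCL2 relative BCL2A1 (1.03) rose and none fell, against 0.688% of all genes tested called higher. The list's median was 0.22, against -0.05 over all genes. At an unadjusted p under 0.05, 5 of the 16 were higher and 0 lower, against 321 and 230 of all 12350 genes. The mitochondrial superoxide dismutase SOD2 differed by 0.90 without passing limma's test (adjusted p = 0.151). BCL2A1 lost its call in 4 of the 6 fits leaving out 1 array, with adjusted p up to 0.964 without the GFP vehicle array, and IER3 without the YAP(5SA) vehicle array (adjusted p = 0.444) or TNFa array (adjusted p = 0.149). None of 23 known YAP target genes passed limma's test, with a median of -0.02, while 2 were higher and 2 lower at an unadjusted p under 0.05. CCN1 and CCN2 differed by -0.45 and -0.41, and ANKRD1 by -0.74 (adjusted p = 0.364). None of 11 housekeeping genes, 7 epithelial, 5 alveolar and airway, 3 fibroblast or 3 endothelial markers passed, and of these ACTB (-0.67) and the epithelial factor ELF3 (1.02) had an unadjusted p under 0.05. Of 8 leukocyte markers tested, the B cell gene MS4A1 passed with a difference of 1.08 ± 0.25 (adjusted p = 0.0227), but its second probe moved by 0.37 and -0.41, and it lost its call in 5 of the 6 fits leaving out 1 array (adjusted p from 0.117 to 0.309). The summed intensity of the 13 leukocyte markers with a probe was 10090 and 6044 with vehicle and 9135 and 7855 with TNFa, and its part in any result was not tested.

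Few genes fell. Leaving aside the 5 that jump on 1 array and IFFO2, the lower genes were FOXM1, AGR2, ID1 and RTL10. ID1, an inhibitor of differentiation factors that BMP signalling induces, read 103143 and 57091 with vehicle and 36667 and 37029.9 with TNFa. The groups do not overlap (against 11.7% of all genes with both TNFa arrays below both vehicle arrays), and the difference was -1.06 ± 0.26 (adjusted p = 0.041). Its relative ID2 differed by -0.95 without passing (adjusted p = 0.0622). RTL10 read 838.6 and 883.4 with vehicle and 372.6 and 488.7 with TNFa, a difference of -0.99 (adjusted p = 0.0471), and lost its call in 5 of the 6 fits leaving out 1 array (adjusted p from 0.154 to 0.702).

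FOXM1, a cell cycle transcription factor, read 5699.6 and 26560 with vehicle and 3995 and 6079.7 with TNFa, and most of its difference of -1.32 (adjusted p = 0.0159) came from the bright YAP(5SA) vehicle array. Without that array the value was -0.45 (adjusted p = 0.766), and without the YAP(5SA) TNFa array -0.98 (adjusted p = 0.145). AGR2 lay at the floor in the YAP(5SA) line, at 35.3 with vehicle and below 0 with TNFa, so its difference of -1.09 is in part one between values near 0, and it lost its call in 4 of the 6 fits leaving out 1 array (adjusted p from 0.103 to 0.75). In the list of 25 cell cycle and ID genes, FOXM1 and ID1 fell and none rose, with a median of -0.20. ID1 was not called without the GFP vehicle array (adjusted p = 0.974), the GFP TNFa array (adjusted p = 0.264) or either IL-1b array (adjusted p = 0.136).

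Responses differed in size between the lines, which 1 array per condition gives no means to test. Of the 47 genes at least 2-fold higher in both lines, 31 moved further in GFP cells and 16 in YAP(5SA) cells, with medians of 1.83 and 1.58. Over all genes tested, 33.6% had the larger difference in the GFP pair. After each pair's median over all genes was subtracted, 41 of the 47 were larger in GFP, against 50.8% of all genes tested. The count thus depends on the scaling. The 11 housekeeping genes tested had medians of -0.04 in GFP and -0.11 in YAP(5SA). Their mean differences ran from -0.67 to 0.23, so medians over so few genes cannot show whether the all-gene shift is present in them. After median centring of the arrays the medians were 0.10 and -0.25. Whether the subtraction itself makes responses look larger in GFP was not tested. Without the subtraction, 12 of the 47 were larger in GFP by at least 1 log2 unit and 0 in YAP(5SA). Among these, TNF moved by 5.48 in GFP and 4.08 in YAP(5SA), TNFAIP3 by 4.37 and 3.01, EFNA1 by 3.38 and 2.10, FOSB by 2.90 and 1.51, and NFKBIZ by 2.72 and 1.05. For TNFAIP3, EFNA1 and NFKBIZ the YAP(5SA) line also started higher, for TNF slightly so, and for FOSB it started lower. Of genes larger in YAP(5SA), CXCL1 moved by 1.97 and 2.59 and PTGS2 by 1.77 and 2.30, both from a lower vehicle level in that line.

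TNFa was also set against the other cytokine in the same fit, where the difference itself does not use the vehicle arrays but its error does. The contrast called 1 gene higher with TNFa, 0.0081% of the genes tested, and 2 lower, 0.0162%, and 1533 genes had an unadjusted p under 0.05. The gene higher with TNFa was IZUMO3, a sperm protein family member, which read 4706 and 6973 with vehicle, 2796 and 4141 with TNFa, and 539.9 and 241.9 with IL-1b. Those lower with TNFa were CAMKK2 and ATXN7L3B, which jump on the YAP(5SA) TNFa array. These counts depend on the settings: a prior with a trend gave 123 and 9, and the fit without the YAP(5SA) TNFa array 248 and 255.

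None of the 85 genes called with TNFa passed in that contrast, while 22 of them had an unadjusted p under 0.05. The nearest was IL23A, at 5503 and 3819.8 with IL-1b against 1882 and 2420.2 with TNFa, a difference of -1.10 (95% interval from -1.62 to -0.57, adjusted p = 0.0742). CXCL2 differed by -1.06 (95% interval from -1.58 to -0.54, adjusted p = 0.0816), with 191036 and 208766 on the IL-1b arrays. With the trend prior, CXCL2, IL23A, LINC03025, SERPINA3 and ZC3H12A were called lower with TNFa and TAS2R39 higher, and without either vehicle array CXCL2, IL23A and LINC03025 were called lower. When a cytokine array was left out, that cytokine was represented by 1 array. Most of the 85 genes then called, in each such fit, were among those named above that jump on 1 array. The others were IL23A, IRF1, TAS2R39 and ZC3H12A when TNFa in the YAP(5SA) line was left out. They were CXCL2 and LINC03025 when TNFa in the GFP line was left out. LINC03025 was also called when IL-1b in the YAP(5SA) line was left out. With IL-1b in the GFP line left out, the genes called were the jumping DHX29 and TUT1. The 47 genes at least 2-fold higher in both lines ranged from -1.20 to 0.72 in TNFa minus IL-1b. TNFa and IL-1b responses share their vehicle arrays, so they are only set side by side: CCL20 moved by 5.69 with TNFa and 6.07 with IL-1b, TNF by 4.78 and 5.63, CXCL8 by 4.62 and 4.59, NFKBIA by 1.98 and 2.05, EFNA1 by 2.74 and 2.35, and IRF1 by 2.47 and 1.79.

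Among genes left out as dim, INHBA, the activin A subunit, was at least 2-fold higher in both lines. Its probe read 40.6 and 68.9 with vehicle and 228.9 and 237.4 with TNFa, with differences of 2.11 and 1.58. SPDYE6 was the other such gene, at 6.46 and 9.97 with vehicle and 50.04 and 83.1 with TNFa. In the opposite direction, 51 dim probes were at least 2-fold lower in both pairs, close to the floor where the TNFa arrays hold more values below 0 than their vehicle arrays. No test was run on these probes.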

How the data were processed

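Intensities were deposited by the authors as 1 table of 28264 probes on 6 one-colour arrays. The background method, the scaling target and any averaging of spots: not given in the sources used here. The values are linear intensities, and values below 0 show that background had been subtracted. Trizol extracts were amplified by an amino-allyl antisense RNA method and dyed with Cy5, per the labels' protocols. The number of arrays limits the precision, and the table holds no detection flags.

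Of the probes, 25893 carried 1 gene in the platform annotation, 0 several and 2371 none. All 25893 gene identifiers matched the RefSeq table, used for symbols and chromosomes, and stood for 19090 genes. Values below 0 were set to 0, 16 was added and log2 taken. Named probes in the lowest 40% of mean intensity were dropped, and each gene took its brightest probe. The deposited values were not rescaled. An additive model of line and treatment was fitted to all 6 arrays in R 4.3.3 with limma 3.58.1 (lmFit, eBayes), and p-values were adjusted by Benjamini-Hochberg over 12350 genes at 0.05. Line pairs the arrays in the fit. The residual degrees of freedom were 2, and the prior had 34.3 with an SD of 0.256. On simulated data for TNFa minus vehicle over 12350 genes, of which 200 were changed, 60% of 1-unit changes and 100% of 2-unit changes were recovered, with 7 and 5 false calls. These figures describe the simulated data alone and give no error rate for the calls made on the arrays.

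The genes named were drawn from the 20 largest higher and 10 largest lower calls with the same sign in both pairs and a set fixed by name. They were also drawn from members of each list that passed plus up to 4 with the largest differences. The largest TNFa minus IL-1b calls and the calls that differed most between lines complete the rule. Not every gene under this rule is described. Genes outside this rule (EPCAM, SFTPA1, SFTPC, NKX2-1, PTPRC, CD3E, INHBA, SPDYE6, TIFA, GCH1, KDM6B, PIM1, the pathway kinases and others given for comparison) were chosen after their values were seen. The comparison, the 25 gene lists and the rules were chosen with earlier results of these data known. Of 401 listed symbols, 298 were tested, 86 fell below the filter and 17 had no probe. Promoters come from RefSeq (GRCh38.p14). Alternatives were other scalings, filters, pseudocounts, probe rules, priors, size limits, the line term left out, fewer arrays, and each array left out in turn.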

Additional observations from a re-analysis of the deposited data

Results flagged for a closer look

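For 5 genes called higher, the TNFa minus vehicle difference had opposite signs in the lines, and each rests on 1 vehicle array that reads far below the other 5 arrays. The differences were -0.35 in GFP and 4.54 in YAP(5SA) for KIF5B, 8.33 and -0.44 for DHX29, 5.50 and -0.51 for BLM, -0.21 and 6.48 for P3H1, and 6.60 and -0.11 for TUT1. The difference between lines was not tested. A second probe of KIF5B, with a mean intensity of 2166, moved by 0.29 and 0.11. The second probe of P3H1, with a mean of 11.4, lay at the floor and could not show such a change, and DHX29, BLM and TUT1 have 1 probe each. Among the 2371 probes without a gene name, which no comparison used, 4 were at least 2-fold higher with TNFa in both pairs, with differences between 1.07 and 2.60, and the probe with the 2.60 read at or near 0 on both vehicle arrays.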

How the results depend on the processing

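The count of 85 genes higher with TNFa was 29 with no filter, 44 with the mean of all probes, 30 with every named probe as a feature and 2 without the line term. It ran from 41 to 110 when 1 array was left out. The 10 lower calls became 2 with quantile normalization, 2 with median centring, 1 with the mean of probes, 4 with every probe and 1 without the line term, and 9 to 33 with 1 array left out. The 47 genes at least 2-fold higher in both lines were 37 to 62 over the other scalings, filters, probe rules and pseudocounts, 134 at 1.5-fold and 20 at 3-fold. The 1 lower gene became 41 without the filter, 66 over every probe and 32 at 1.5-fold.

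TNFa minus IL-1b gave 1 gene higher with TNFa. The count was 2 with no filter, 39 with the dimmest 60% left out, 0 with every probe, 16 with a pseudocount of 64, 123 with a trend prior, 0 without the line term, 29 without genes that jump on 1 array, and 6 to 248 with 1 array left out. The 2 lower were 0 with either other scaling, no filter, the mean of probes, every probe, a pseudocount of 1 or no line term, 5 with 60% left out or without jumping genes, 8 with a pseudocount of 64, 9 with the trend prior and 3 to 255 with 1 array left out.

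Without the line term, 0 CXC chemokines, 1 CC chemokine, and 0 cytokines, IkB genes, feedback inhibitors, AP-1 genes or EGR-list genes were called. Cytokines called were 1 with no filter, the mean of probes or every probe, and 1 to 2 with 1 array left out. IkB genes were 1 with no filter or every probe and 1 to 4 with 1 array left out, and AP-1 genes 0 with every probe. The EGR list had 0 with no filter, the mean of probes or every probe, 3 on the TNFa and vehicle arrays alone, and 1 to 5 with 1 array left out. With 1 array left out, 5 genes reversed: BLM ranged from -0.54 to 5.53, DHX29 from -0.46 to 8.35 and TUT1 from -0.17 to 6.66, lowest without the GFP vehicle array, and KIF5B from -0.25 to 4.44 and P3H1 from -0.14 to 6.41, lowest without the YAP(5SA) vehicle array. Of the remaining values of named genes under alternatives, 1776 kept their side of the threshold, 327 lost the call and 22 gained one. A change of sign was counted as a reversal only where the main or the alternative fit called the gene. CCL20, C1QBP and IFFO2 were called in every setting run. Except where stated, the cause of a change was not tested.

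The labels carry no replicate numbers. Line pairs the arrays in the fit reported, and the fit without the line term is its unpaired counterpart. Signal near the floor and 1 array per condition limit what dim genes can show.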
